A study of Mus musculus with 26 samples.

Results

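The mouse mitochondrial genome encodes 13 proteins, and the transcripts of these genes were examined in T cells sorted from Peyer's patches, the organised lymphoid tissue of the small bowel. The genes were chosen as those whose name starts with mt- and whose chromosome is given as MT in the deposited read tables. This rule found 13 of the 25814 listed genes, and all 13 code for protein. The 2 ribosomal RNA genes and 22 transfer RNA genes of the same genome were not analysed here. Of the 13 genes, 7 encode subunits of complex I, 1 of complex III, 3 of complex IV and 2 of complex V.

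Mitochondrial DNA is transcribed from both strands as long precursor RNAs that hold many genes. Transfer RNAs lie between most of the coding regions, and cutting at these releases most of the messenger RNAs. Most messenger RNAs are then given short poly(A) tails in the organelle. The encoded proteins are core subunits of the respiratory chain and of ATP synthase, whose other subunits are encoded in the nucleus and imported. Quiescent T cells depend largely on oxidative phosphorylation, and T cells that meet antigen enlarge their mitochondrial mass and raise glycolysis.

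All mice were of strain C57Bl/6. CD4+ T cells came from mice on a conventional diet (n = 6) or on an elemental diet (n = 6), which supplies amino acids in place of intact protein. The conventional diet was also that of the mice that gave the CD44+ (n = 7) and the CD44- (n = 7) T cell libraries. CD44 binds hyaluronan, and T cells with previous antigen contact carry more of it. For the CD4+ cells, 22 ng of RNA per library went through poly(A) selection and a standard kit, while the CD44+ and CD44- libraries used a low-input kit on 1 ng. Between the CD4+ and the CD44 libraries, population, kit and RNA input cannot be told apart, so each pair of groups was described on its own. The labels give no age or sex, and leave unsaid whether CD4 was part of the gates for CD44+ and CD44- cells. They do not say whether replicates were separate animals either, so p-values measure only the spread between these samples, which may be technical.

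Exon reads ran from 16401589 to 25415205 per CD4+ library and from 7180390 to 13378353 per CD44 library. The least read of the 13 genes in any library was mt-Nd6, with 182 reads in CD44+ replicate 6. Introns took 3.33% to 4.61% of gene reads in CD4+ libraries and 17.7% to 29.0% in 13 of the CD44 libraries. CD44- replicate 2 stood apart from these at 9.39%, so results of the CD44 comparison are also given without it. All 8 T cell markers were expressed and none of them was called by edgeR between CD44+ and CD44- libraries, with 3 at an unadjusted p under 0.05. Cd44 transcripts overlapped between these groups, at 47.5 to 139 CPM in CD44- and 89.2 to 362 CPM in CD44+ libraries, with a log2 fold change of 0.95 ± 0.40 (SE, edgeR adjusted p = 0.303).

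The coding regions are packed closely along the mitochondrial chromosome, and the stretches below show where neighbours share bases or end on an incomplete codon, since a read in shared bases can belong to either gene. They were read from the GENCODE transcript sequences for GRCm38, whose mitochondrial gene coordinates matched those in the deposited tables for 13 of 13 genes, and are written 5′ to 3′ on the plus strand, which carries 12 of the genes. The exception is mt-Nd6, whose coding sequence lies on the minus strand. In the first stretch, chrM:7927-7969, the capitals mark the start codon of mt-Atp6 and the stop codon of mt-Atp8. In the second, chrM:8578-8636, they mark the stop codon of mt-Atp6, whose last base is the first base of the start codon of mt-Co3. In the stretches of mt-Nd4l with mt-Nd4 (chrM:10147-10193) and of mt-Nd5 with mt-Nd6 (chrM:13536-13581) they mark the shared bases.
mt-Atp8 and mt-Atp6 overlap: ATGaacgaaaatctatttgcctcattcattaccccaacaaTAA
mt-Atp6 and mt-Co3 junction: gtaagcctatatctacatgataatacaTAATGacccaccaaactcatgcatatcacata
mt-Nd4l and mt-Nd4 overlap: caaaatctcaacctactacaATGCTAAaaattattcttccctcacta
mt-Nd5 and mt-Nd6 overlap: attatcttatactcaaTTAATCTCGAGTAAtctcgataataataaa

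The shared stretches hold 43, 1, 7 and 14 bases in this order. Reads within them cannot be told apart between the neighbours, and the strand of the counting is not given in the sources used here. For mt-Atp8, with 204 bases the shortest of the 13 genes, the overlap is a larger part of the gene than for mt-Atp6 with its 681 bases. In mt-Co3, mt-Nd4 and mt-Cytb, 3 of 13 genes, the coding sequence ends on the T of an unfinished stop codon, which the poly(A) tail completes. Their last 30 bases (chrM:9361-9390, chrM:11515-11544 and chrM:15259-15288) are shown with this T in capitals.
mt-Co3 end: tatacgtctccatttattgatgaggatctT
mt-Nd4 end: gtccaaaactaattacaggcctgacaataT
mt-Cytb end: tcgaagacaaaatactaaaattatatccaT

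Of the 3 genes that were called between CD44+ and CD44- libraries, mt-Atp8 had the highest A content (40.7%) and the lowest GC content of the 13 coding sequences. The A content was 34.1% in mt-Atp6 and 31.7% in mt-Cytb, within 22.2% to 40.7% over the 13. The longest run of A in the coding sequence was 5 bases in each of mt-Atp8, mt-Atp6 and mt-Cytb, and also 5 in mt-Co3, within a range of 3 to 8 over the 13 genes. The GC content of mt-Atp8, mt-Atp6 and mt-Cytb was 31.9%, 36.0% and 39.1%, against 31.9% to 41.1% over all 13.

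Although the genes are transcribed as long joint precursors, their levels spanned more than 100-fold within every group. Levels of different genes were compared as CPM (exon reads relative to the TMM-scaled library size) per kilobase of exon. The highest median in all 4 groups was that of mt-Co3, a core subunit of cytochrome c oxidase, at 37170 CPM per kilobase in CD44- and 24322 in CD44+ libraries. The lowest in these groups was mt-Nd5, a large membrane subunit of complex I, at 177 and 89.1 CPM per kilobase. This is a span of 210-fold in CD44- and 273-fold in CD44+ libraries.

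In CD44+ libraries mt-Co3 did not overlap the next gene in the order, mt-Co1, the catalytic subunit of complex IV, at 8429 CPM per kilobase. Then followed mt-Co2, which binds cytochrome c, at 8272, mt-Atp6, the membrane subunit of ATP synthase in its proton path, at 5711, and mt-Nd1 of complex I at 3003. Each of these overlapped its neighbour. In CD44- libraries mt-Atp6 was in second place at 19775 CPM per kilobase, and each gene overlapped the next in the order.

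In the CD4+ libraries mt-Co3 was highest as well, with medians of 32580 CPM per kilobase on the conventional and 31686 on the elemental diet. The order went on with mt-Atp6 (22921 and 21141), mt-Atp8 (17165 and 14988), a small membrane subunit of ATP synthase, and mt-Nd3 (6749 and 10258), a small subunit of complex I. The lowest gene in both was mt-Nd4l, another small subunit of complex I, at 239.7 and 178 CPM per kilobase. The span was 136-fold on the conventional and 178-fold on the elemental diet. On the conventional diet mt-Atp6 and mt-Atp8 did not overlap, whereas the 3 lowest genes, mt-Nd5, mt-Nd6 and mt-Nd4l, overlapped each other in sequence in both diets.

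Part of the reads of 3 genes matched several places in the genome. Uniquely matched reads made up a mean of 73.1% to 75.7% of the reads of mt-Co2, 76.0% to 82.1% of those of mt-Co1 and 78.0% to 87.9% of those of mt-Nd2 over the 4 groups. For the other 10 genes, group means were between 99.99% and 100%. These 3 genes are therefore uncertain in their level, while their log2 fold changes on unique reads stayed on the same side of 0 in both comparisons.

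Summed over the 13 genes, mitochondrial transcripts took 9.84% ± 4.07 (SD, n = 7) of exon reads in CD44- libraries and 5.63% ± 1.90 (SD, n = 7) in CD44+ libraries. CD44- libraries ran from 3.29% in replicate 2 to 17.3% in replicate 4, with a median of 9.47%, and CD44+ libraries from 3.69% to 8.39%, with a median of 5.18%. All 7 CD44+ libraries were below the CD44- mean, but the groups overlapped because CD44- replicate 2 was below every CD44+ library. The other 6 CD44- libraries, at 9.22% or more, were above every CD44+ library, and without replicate 2 the CD44- mean was 10.9%.

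On the conventional diet the share was 7.17% ± 0.704 (SD, n = 6), from 6.59% to 8.56%. On the elemental diet it was 6.44% ± 0.577 (SD, n = 6), from 5.40% to 7.07%. All 6 elemental libraries were below the conventional mean and 4 of 6 were below every conventional library, so the groups overlapped. The share was described without a test, since it is a sum over genes chosen together.

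**Figure D1:**
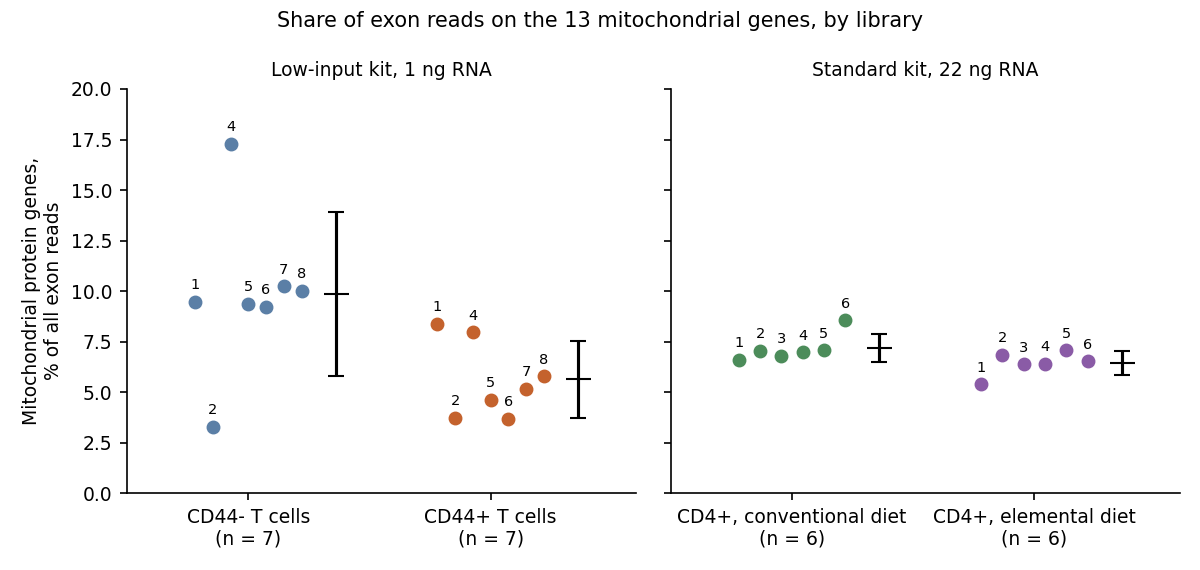
Percent of all exon reads on the 13 mitochondrial protein genes in each library (points, numbered by replicate), with the group mean and SD in black; the panels differ in kit and RNA input. CD44- replicate 2 at 3.29% lies below all CD44+ libraries and the other 6 CD44- libraries lie above them, while the 2 diets lie between 5.40% and 8.56%.

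Between CD44+ and CD44- libraries, transcripts of both ATP synthase subunits and of cytochrome b fell in CD44+ cells, while mt-Co3, which lies next to mt-Atp6 on the same strand, did not pass the test. Of 8343 genes tested, 64 were called at an adjusted p under 0.05, which is 0.767% of the genes. Lower in CD44+ were 39 genes, or 0.467%, and higher were 25, or 0.3%. Among the 13 mitochondrial genes, 3 were called, all lower. Of the 13, 12 had a log2 fold change below 0, against 48.9% of all genes tested. Their median log2 fold change was -1.11, against 0.03 over all genes. In bulk RNA of sorted cells, fewer cells of a type and less RNA per cell cannot be told apart.

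The largest decreases among the 13 genes were those of the ATP synthase genes and of cytochrome b. In CD44- libraries mt-Atp8 was between 867 and 7691 CPM with a median of 2014, and in CD44+ libraries between 181 and 534 CPM with a median of 409. The groups did not overlap. The log2 fold change was -3.07 ± 0.47 (SE), a fold of 8.41 (edgeR's quasi-likelihood test with Benjamini-Hochberg adjustment, adjusted p = 0.00342).

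For mt-Atp6, CD44- libraries ran from 5368 to 41624 CPM with a median of 13467, and CD44+ libraries from 1967 to 5237 CPM with a median of 3889. The lowest CD44- and the highest CD44+ library lay close together, but again no CD44+ library reached the CD44- group. The log2 fold change was -2.20 ± 0.39 (SE), a fold of 4.59 (edgeR adjusted p = 0.00912). Absence of overlap in this direction was found in 30 of 8343 genes, or 0.36%.

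Cytochrome b, encoded by mt-Cytb, is the only subunit of complex III made in the mitochondrion, and it carries electrons between the quinone sites of that complex. Its transcripts were between 4011 and 44822 CPM in CD44- libraries, with a median of 11748, and between 1472 and 4690 CPM in CD44+ libraries, with a median of 3040. Of the CD44+ libraries, 6 of 7 were below every CD44- library. The log2 fold change was -2.46 ± 0.43 (SE), a fold of 5.49 (edgeR adjusted p = 0.00912).

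**Figure D2:**
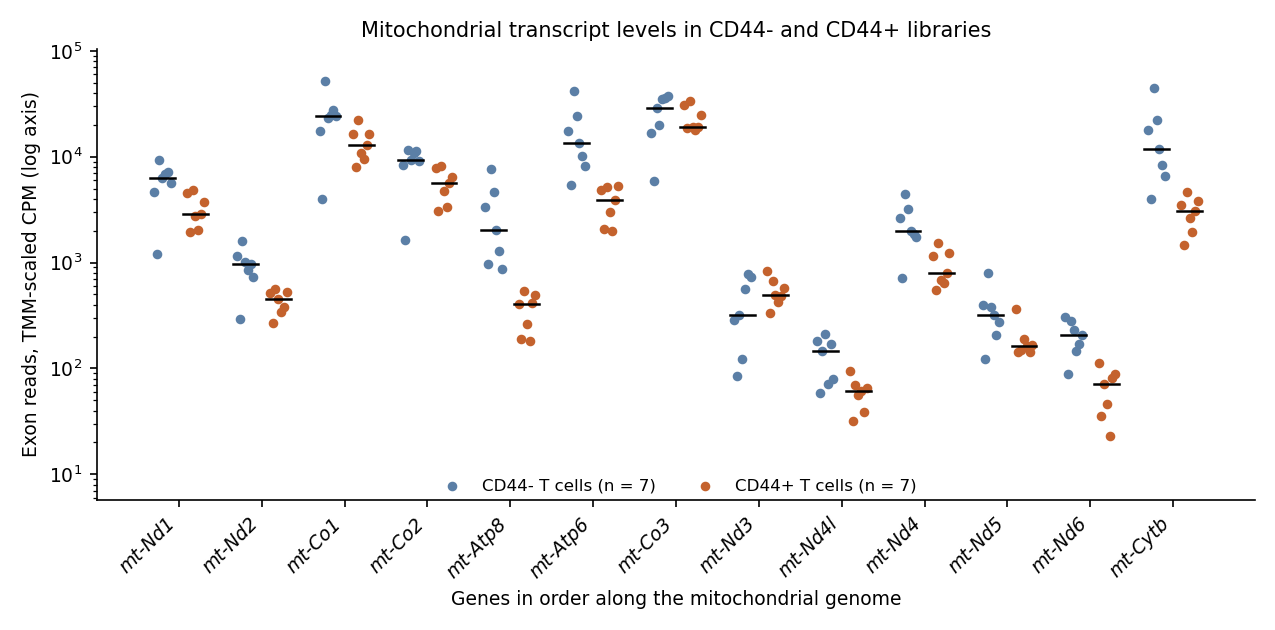
TMM-scaled CPM (log axis) of each mitochondrial gene in the 7 CD44- and 7 CD44+ libraries, with genes in their order along the genome and black bars at group medians. The groups are apart for mt-Atp8 and mt-Atp6 and overlap widely for mt-Co3 and mt-Nd3.

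The 3 complex IV genes did not pass the test with edgeR, DESeq2 or voom. Of these, mt-Co1 alone had an unadjusted p under 0.05 in edgeR and voom, and none had one in DESeq2. CD44- libraries held 5959 to 37707 CPM of mt-Co3 with a median of 29141, and CD44+ libraries held 17921 to 33735 CPM with a median of 19069. The CD44+ values lay wholly within the CD44- range, and the log2 fold change was -0.14 ± 0.30 (SE, edgeR adjusted p = 0.894). For mt-Co1 the CD44- libraries ran from 3980.3 to 51753 CPM (median 24147) and the CD44+ libraries from 7986 to 22259 CPM (median 13022). For mt-Co2 they ran from 1649.7 to 11574 CPM (median 9357) and from 3099 to 8099.6 CPM (median 5658). Both overlapped, mt-Co2 only through CD44- replicate 2, since the other CD44- libraries held 8323 CPM or more. The log2 fold changes were -0.84 ± 0.36 for mt-Co1 and -0.66 ± 0.32 for mt-Co2 (SE, edgeR adjusted p = 0.308 and 0.396).

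None of the 7 complex I genes passed the adjusted threshold in edgeR, although 6 had an unadjusted p under 0.05, and DESeq2 and voom each called mt-Nd6. The nearest to it were mt-Nd6 and mt-Nd4. For mt-Nd6, the gene of the minus strand, CD44- libraries ran from 88.0 to 306 CPM (median 209) and CD44+ libraries from 23.0 to 113 CPM (median 70.8). Of the CD44+ libraries, 6 of 7 were below every CD44- library, with a log2 fold change of -1.65 ± 0.41 (SE, edgeR adjusted p = 0.0691). For mt-Nd4, a membrane subunit in the proton-pumping arm, the values ran from 713 to 4424 CPM (median 1979) and from 548 to 1537 CPM (median 802). The groups overlapped, with 3 of 7 CD44+ libraries below every CD44- library and a log2 fold change of -1.33 ± 0.33 (SE, edgeR adjusted p = 0.0691).

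The other complex I genes overlapped between the groups as well. CD44- libraries held 294 to 1586 CPM of mt-Nd2 (median 959.7) and CD44+ libraries 269 to 563 CPM (median 449), with a log2 fold change of -1.11 ± 0.30 (SE, edgeR adjusted p = 0.0869). The subunit mt-Nd1, which lies at the quinone site, was at 1209.8 to 9269 CPM (median 6347) and 1951 to 4892 CPM (median 2874). Its log2 fold change was -0.86 ± 0.33 (SE, edgeR adjusted p = 0.248). All 7 CD44+ libraries were below the CD44- mean for mt-Nd1 and mt-Nd2.

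Among the low genes, mt-Nd4l was at 58.2 to 209.9 CPM (median 145) in CD44- and 31.7 to 95.6 CPM (median 60.6) in CD44+ libraries. Its log2 fold change was -1.14 ± 0.42 (SE, edgeR adjusted p = 0.231). The values of mt-Nd5 were 124 to 793 CPM (median 322) and 142 to 365 CPM (median 162), with a log2 fold change of -0.92 ± 0.37 (SE, edgeR adjusted p = 0.275). The gene mt-Nd3 was the exception in sign. It ran from 85.4 to 781 CPM (median 319) in CD44- and from 334 to 836 CPM (median 491) in CD44+ libraries. Its log2 fold change was 0.41 ± 0.41 (SE, edgeR adjusted p = 0.750).

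**Figure D3:**
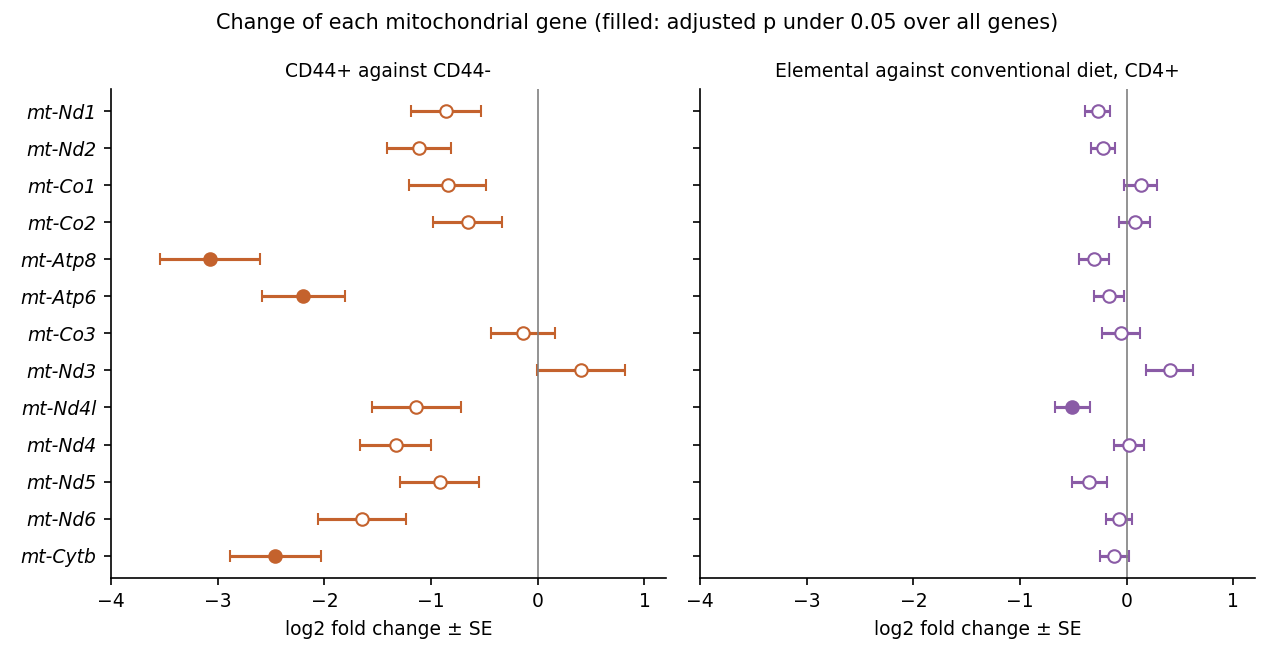
Log2 fold change with SE of each mitochondrial gene, in genome order, for CD44+ against CD44- libraries (left) and elemental against conventional diet (right); filled points have an adjusted p under 0.05 over all genes tested. On the left mt-Atp8, mt-Atp6 and mt-Cytb are filled between -3.07 and -2.20, and on the right only mt-Nd4l at -0.51.

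The calls of mt-Atp8, mt-Atp6 and mt-Cytb held under 25 of 25 alternatives, including each library left out in turn. Over these the log2 fold change was between -3.25 and -2.63 for mt-Atp8, -2.38 and -1.81 for mt-Atp6, and -2.66 and -1.97 for mt-Cytb. Without CD44- replicate 2, which held the lowest value of its group in 12 of 13 genes, 7 genes were called, all lower. The added calls were mt-Nd1, mt-Nd2, mt-Nd4 and mt-Nd6, with edgeR adjusted p-values of 0.0427, 0.0132, 0.0171 and 0.0433. The overlap of the groups in mt-Co2, mt-Cytb, mt-Nd2, mt-Nd4 and mt-Nd6 also rested on this library alone. The share of all genes of which this holds was not counted.

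Since the genes share precursors and a library, ratios between them were formed within each library, as reads per kilobase of one gene over those of another. The ratio of mt-Atp6 to mt-Co3, which are adjacent, had a median of 1.04 in CD44- and 0.180 in CD44+ libraries. It was 0.248 to 1.64 in CD44- and 0.126 to 0.241 in CD44+ libraries, so the groups did not overlap. Within the CD44- group, replicates 1, 2, 4 and 5 lay between 1.04 and 1.64, and replicates 6, 7 and 8 between 0.248 and 0.441. The labels do not set these libraries apart.

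The ratio of mt-Atp8 to mt-Co3 was 0.0883 to 1.01 in CD44- (median 0.632) and 0.0385 to 0.0836 in CD44+ libraries (median 0.0532). That of mt-Cytb to mt-Co3 was 0.120 to 1.05 (median 0.461) and 0.0536 to 0.110 (median 0.0944). Neither overlapped between groups, and in both the same CD44- replicates 6, 7 and 8 were nearest to the CD44+ libraries. The ratio of mt-Atp8 to mt-Atp6, which overlap on the chromosome, did not overlap between groups either, at 0.357 to 0.650 in CD44- and 0.280 to 0.354 in CD44+ libraries. Overlapping genes need not be separate messages, and what this ratio reflects was not tested.

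Other ratios overlapped. Relative to mt-Co3, mt-Nd3 was at 0.0139 to 0.0490 in CD44- and 0.0400 to 0.0616 in CD44+ libraries, with 5 of 7 CD44+ libraries above every CD44- library. The ratio of mt-Nd4l to mt-Nd4, another overlapping pair, was 0.153 to 0.425 and 0.209 to 0.435. The ratio of mt-Nd6 to mt-Nd5, which lie on opposite strands, was 1.25 to 2.93 and 0.499 to 2.01. As these ratios were formed after the levels had been seen, they are given without a test.

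**Figure D4:**
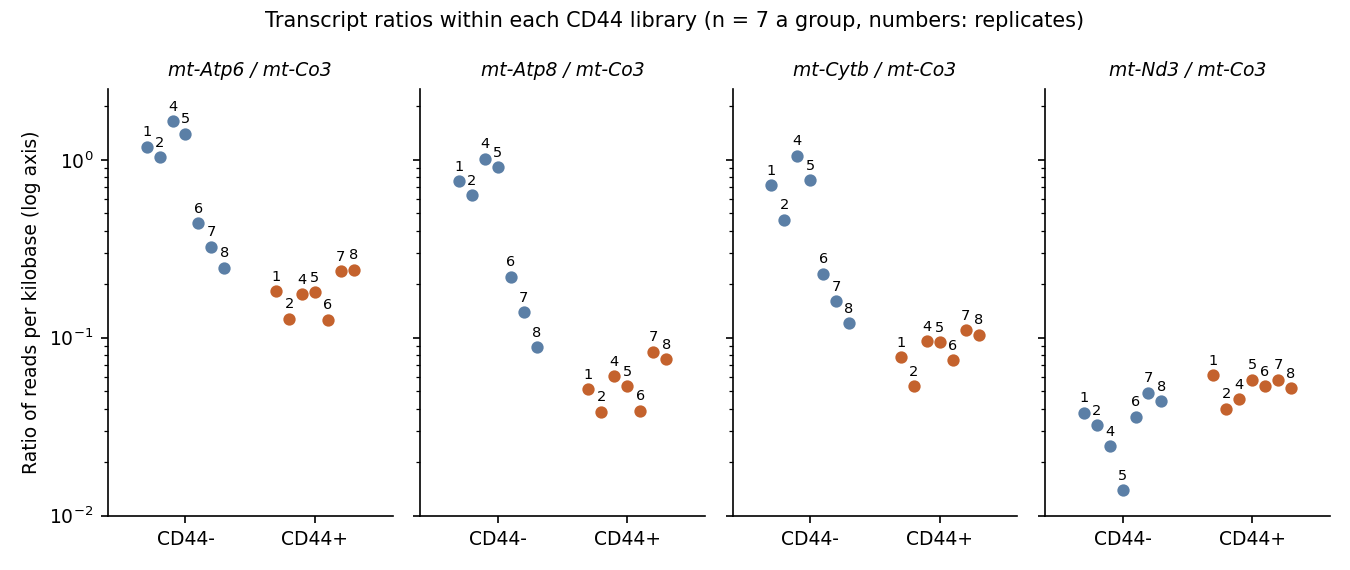
Ratios of reads per kilobase (log axis) within each CD44- and CD44+ library, with points numbered by replicate. For mt-Atp6, mt-Atp8 and mt-Cytb over mt-Co3 the CD44- replicates 1, 2, 4 and 5 lie highest, replicates 6, 7 and 8 lower and all CD44+ libraries lowest.

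The make-up of the mitochondrial reads differed accordingly. In CD44+ libraries mt-Co3 took 42.9% ± 4.44 (SD, n = 7) of the reads of the 13 genes, against 25.7% ± 9.55 in CD44- libraries. The CD44+ libraries ran from 38.1% to 50.9% and the CD44- libraries from 14.3% to 39.3%, with overlap. The CD44- replicates 6, 7 and 8 were highest in their group, at 32.2% to 39.3%. The share of mt-Atp6 was 6.64% ± 1.11 against 16.1% ± 5.79, and that of mt-Cytb 5.35% ± 0.759 against 14.7% ± 6.10 (SD, n = 7). Neither overlapped, at 5.10% to 8.22% against 8.46% to 21.9% for mt-Atp6 and 3.98% to 6.11% against 6.90% to 22.0% for mt-Cytb. The share of mt-Co1 was 24.6% ± 1.86 against 22.2% ± 3.75, a difference smaller than the spread of the CD44- libraries. The highest CD44- library was 3.48 to 13 times the lowest over the 13 genes, and the highest CD44+ library 1.88 to 4.92 times, with the wider range in CD44- libraries for 12 of 13 genes. This rested in part on CD44- replicate 2, without which the CD44- range was 1.39 to 8.87 times and the wider one for 8 of 13. Leaving out any other library of either group in turn, a comparison chosen after seeing the data, gave 12 or 13 of 13, and the difference in spread was not tested. Of the highest values in CD44- libraries, 9 of 13 were in replicate 4.

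Nuclear genes for the same complexes were described beside the mitochondrial ones. Of 71 nuclear subunits of complexes I, III, IV and V tested, 66 had a log2 fold change above 0, with a median of 0.62. Of all genes tested, 48.9% were below 0, with a median of 0.03. A single gene of the 71, Atp5g2, passed the test and rose in CD44+ libraries, where 0.3% of all genes were called higher. This gene, which encodes a subunit of the rotating ring of ATP synthase, went from 177 ± 60.5 to 425 ± 120.02 CPM (SD, n = 7), with a log2 fold change of 1.26 ± 0.30 (SE, edgeR adjusted p = 0.0495). The summed level of the 71 genes was 13515 to 34039 CPM in CD44- and 29120 to 49591 CPM in CD44+ libraries, with overlap. Complex II has no subunit in the mitochondrial genome, and of its 4 nuclear subunits 0 were called by edgeR, with 0 at an unadjusted p under 0.05.

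In edgeR no gene was called among 6 of the mitochondrial transcription machinery (median log2 fold change 0.62), 4 of mitochondrial DNA replication (0.58), 20 of mitochondrial RNA processing and stability (0.19) and 6 nuclear regulators of mitochondrial genes (-0.06). At an unadjusted p under 0.05 these lists held 0, 0, 2 and 1 genes. The 77 tested proteins of the mitochondrial ribosome, which translates the messages of the 13 genes, had a median of 0.35. Of these 77, 0 were called, with 5 at an unadjusted p under 0.05.

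Markers of other cell types moved with the comparison in part. Of 4 plasma cell markers tested, 2 rose in CD44+ libraries, where 0.3% of all genes were called higher. The joining chain of antibodies, Jchain, had a log2 fold change of 2.32 ± 0.46 (SE, edgeR adjusted p = 0.0193) and Mzb1, a chaperone of antibody secretion, one of 2.58 ± 0.48 (edgeR adjusted p = 0.0122). The summed level of the 5 plasma cell markers was 374 to 3115 CPM in CD44- and 3806 to 8088 CPM in CD44+ libraries, without overlap. Their part in the mitochondrial values was not tested.

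For the other cell types 0 markers were called by edgeR, of 5 for B cells, 2 for epithelial, 8 for myeloid, 2 for erythroid and 1 for stromal and endothelial cells. Unadjusted, 2 of the B cell markers had a p under 0.05 and none of the others did. Summed levels were 203 to 1258 CPM in CD44- and 518 to 1862 CPM in CD44+ libraries for B cells, and 41.1 to 347 against 65.6 to 188 CPM for epithelial cells, with Alpi at 0 reads in both groups. They were 689.6 to 1294 against 883 to 1191 CPM for myeloid cells, 1.39 to 834 against 6.93 to 632 CPM for erythroid cells, and 4.68 to 85.2 against 2.52 to 41.8 CPM for stromal and endothelial cells, with Pdgfra at 0 reads in CD44-.

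Between the diets, the mitochondrial transcripts of CD4+ T cells differed little, and mt-Nd4l alone passed the test. Of 11938 genes tested 2081 were called, or 17.4%, of which 1156 were higher on the elemental diet (9.68%) and 925 lower (7.75%). Of the 13 mitochondrial genes 1 was called, and it was lower, a share near the 7.75% of all genes called lower and under the 17.4% called in either direction. The log2 fold change was below 0 for 9 of 13, against 51.3% of all genes, with a median of -0.11 against -0.01. None of the 13 was without overlap between the diets, which held for 2.35% of all genes in the lower and 4.82% in the higher direction.

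The gene mt-Nd4l was at 63.9 to 116 CPM (median 71.2) on the conventional diet and 44.5 to 76.7 CPM (median 52.9) on the elemental diet. The groups overlapped, with 4 of 6 elemental libraries below every conventional library and 6 of 6 below the conventional mean. It fell by 0.51 ± 0.17 (SE) on the log2 scale, a fold of 1.42 (edgeR adjusted p = 0.0461). The call held under 11 of 23 alternatives. It was lost without conventional replicate 1 or 5 and without elemental replicate 1, 3, 4, 5 or 6, with edgeR adjusted p-values between 0.0578 and 0.106. The gene mt-Nd4, which overlaps mt-Nd4l by 7 bases, did not move with it (log2 fold change 0.02 ± 0.14, SE, edgeR adjusted p = 0.916). The ratio of mt-Nd4l to mt-Nd4 was 0.303 to 0.544 on the conventional and 0.223 to 0.371 on the elemental diet, with overlap. Overlapping genes need not be separate messages, and the reason for this difference was not tested.

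The other complex I genes did not pass the test. The conventional libraries held 3129 to 4776 CPM of mt-Nd1 (median 3522) and the elemental libraries 2517 to 3425 CPM (median 3058). For mt-Nd5 the values were 461 to 800.1 CPM (median 597) and 331 to 626 CPM (median 511), and for mt-Nd2 1308 to 1679 CPM (median 1507) and 1038 to 1608 CPM (median 1253). All overlapped, with log2 fold changes of -0.27 ± 0.12, -0.35 ± 0.16 and -0.22 ± 0.11 (SE, edgeR adjusted p = 0.109, 0.141 and 0.170). For mt-Nd1 and mt-Nd5, 6 of 6 elemental libraries were below the conventional mean.

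The largest value above 0 was that of mt-Nd3, with 1619.9 to 4391 CPM (median 2349) on the conventional and 2391 to 4212 CPM (median 3570) on the elemental diet. Its log2 fold change was 0.40 ± 0.22 (SE, edgeR adjusted p = 0.215). Without conventional replicate 6, which held the highest value, it was called higher (edgeR adjusted p = 0.0169). Relative to mt-Co3, its neighbour beyond a transfer RNA gene, mt-Nd3 was at 0.197 to 0.237 in conventional and 0.236 to 0.411 in elemental libraries. Of the elemental libraries, 5 of 6 were above every conventional library in this ratio. For mt-Nd4 (706 to 1164 and 695 to 1077 CPM) and mt-Nd6 (125 to 199.7 and 116 to 185 CPM) the log2 fold changes were 0.02 ± 0.14 and -0.08 ± 0.12 (SE, edgeR adjusted p = 0.916 and 0.682).

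Of the ATP synthase genes, mt-Atp8 was at 3406 to 4029 CPM (median 3502) on the conventional and 1767 to 3733 CPM (median 3058) on the elemental diet. Here 5 of 6 elemental libraries were below every conventional library, and the log2 fold change was -0.31 ± 0.14 (SE, edgeR adjusted p = 0.132). For mt-Atp6, at 13926 to 18234 CPM and 9115 to 18246 CPM, it was -0.16 ± 0.14 (SE, edgeR adjusted p = 0.428). The lowest library for both genes was elemental replicate 1.

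The remaining genes did not pass the test. The values of mt-Cytb were 2086 to 3863 CPM on the conventional and 2042 to 2798 CPM on the elemental diet, with a log2 fold change of -0.11 ± 0.14 (SE, edgeR adjusted p = 0.588). Those of mt-Co3 were 18569.5 to 41834 CPM and 20402 to 31839 CPM, with a log2 fold change of -0.05 ± 0.18 (SE, edgeR adjusted p = 0.859). For mt-Co1 (5643 to 11722 and 7136 to 9359.6 CPM) and mt-Co2 (3125 to 5672 and 3277 to 4658 CPM) the log2 fold changes were 0.13 ± 0.15 and 0.08 ± 0.15 (SE, edgeR adjusted p = 0.574 and 0.735). The directions of mt-Co2, mt-Nd4, mt-Co3 and mt-Cytb turned under another scaling or tool, and that of mt-Nd6 with a library left out. Without TMM factors the median log2 fold change of all genes moved from -0.01 to -0.13, and 11 of the 13 mitochondrial genes were then below 0.

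**Figure D5:**
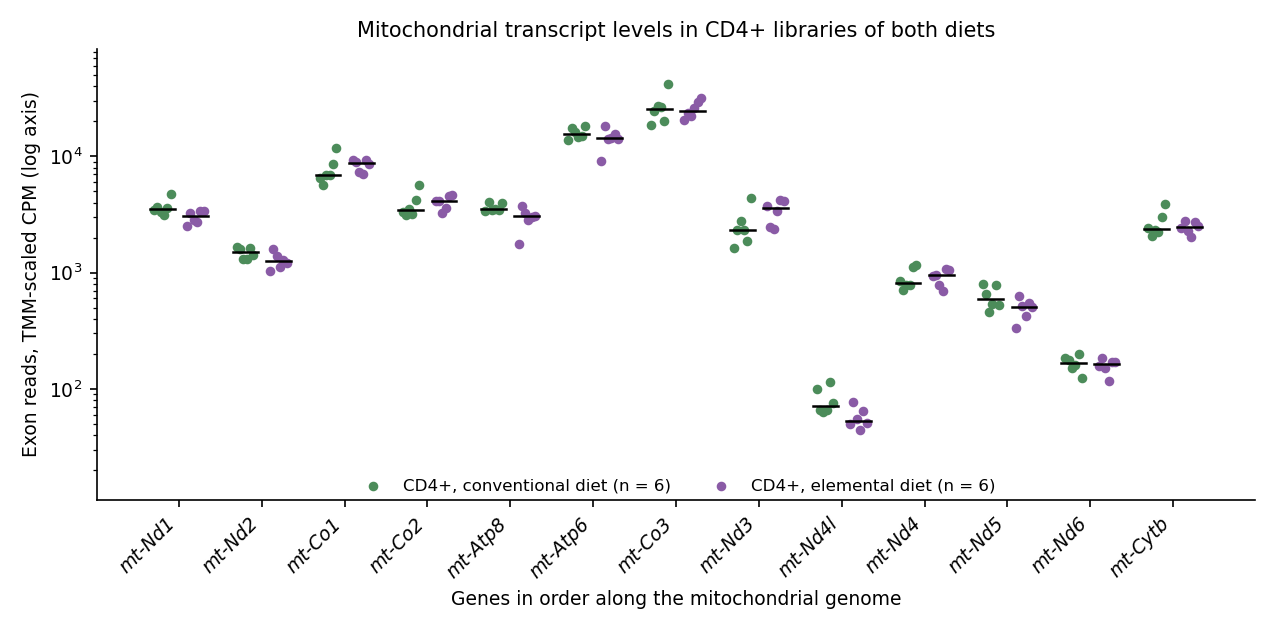
TMM-scaled CPM (log axis) of each mitochondrial gene in the 6 conventional and 6 elemental CD4+ libraries, with genes in genome order and black bars at group medians. The groups overlap for every gene, and mt-Nd4l is the lowest gene in CPM in both.

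Ratios within the CD4+ libraries to mt-Co3 overlapped between the diets for the ATP synthase genes and cytochrome b. The ratio of mt-Atp6 to mt-Co3 was 0.502 to 0.863 on the conventional and 0.514 to 0.887 on the elemental diet, and that of mt-Atp8 to mt-Co3 0.368 to 0.705 and 0.333 to 0.606. For mt-Cytb to mt-Co3 it was 0.0582 to 0.101 and 0.0538 to 0.0818. In both groups mt-Co3 took the largest part of the mitochondrial reads, at 37.4% ± 4.42 and 38.0% ± 3.09 (SD, n = 6), followed by mt-Atp6 at 23.2% ± 2.64 and 21.2% ± 3.36.

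The nuclear subunits of the same complexes lay mostly above 0. Of 71 tested, 70 had a log2 fold change above 0, with a median of 0.25. Of all genes tested, 51.3% were below 0, with a median of -0.01. Of the 71, 4 rose on the elemental diet, a smaller share than the 9.68% of all genes called higher. Without TMM factors 64 of 71 were above 0. The called genes were Ndufa9 of complex I (0.39 ± 0.11), Cyc1 and Uqcrc1 of complex III (0.52 ± 0.14 and 0.31 ± 0.10) and Cox6a1 of complex IV (0.40 ± 0.12, all log2 fold change ± SE), with edgeR adjusted p-values between 0.0239 and 0.0451. The summed level of the 71 subunits was 11533 to 20512 CPM on the conventional and 15025 to 21606 CPM on the elemental diet, with overlap. Of 4 subunits of complex II, Sdhb and Sdhd rose, by 0.45 ± 0.12 and 0.49 ± 0.14 on the log2 scale (SE, edgeR adjusted p = 0.0200 and 0.0307).

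Of 8 nuclear regulators of mitochondrial genes, 2 rose on the elemental diet, where 9.68% of all genes were called higher. The coactivator Ppargc1a was barely detected, at 0.312 ± 0.267 CPM on the conventional and 1.71 ± 1.03 CPM on the elemental diet (SD, n = 6), with a log2 fold change of 2.48 ± 0.67 (SE, edgeR adjusted p = 0.0207). The nuclear receptor Esrra went from 32.6 ± 6.53 to 52.5 ± 9.05 CPM, with a log2 fold change of 0.69 ± 0.14 (SE, edgeR adjusted p = 0.00454). None of 11 genes of the transcription machinery, 9 of replication and 28 of RNA processing was called by edgeR (median log2 fold changes 0.02, -0.09 and -0.07, with 1, 3 and 2 genes at an unadjusted p under 0.05). Of 79 mitochondrial ribosomal proteins, Mrpl2 rose, by 0.45 ± 0.14 on the log2 scale (SE, edgeR adjusted p = 0.0382), and 1 of 79 is a smaller share than that of all genes.

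Markers of other cell types differed between the diets as well. Of 8 myeloid markers 8 rose on the elemental diet, among them the complement component C1qa with a log2 fold change of 2.17 ± 0.31 (SE, edgeR adjusted p = 0.00104). Of 8 epithelial markers 3 rose, among them the adhesion molecule Epcam at 1.79 ± 0.42 (edgeR adjusted p = 0.0142). Of 5 plasma cell markers 4 fell, of 6 B cell markers 2 fell, and of 8 T cell markers 3 fell, among them Cd4 at -0.56 ± 0.16 (edgeR adjusted p = 0.0250). The log2 fold change was above 0 for 1 of the plasma cell and 3 of the T cell markers. Of all genes tested, 9.68% were called higher and 7.75% lower. Of the erythroid (2 tested) and the stromal and endothelial (1 tested) markers 0 were called by edgeR, with 2 and 0 at an unadjusted p under 0.05.

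Summed levels on the conventional and the elemental diet were 414 to 565 and 819 to 1515 CPM for myeloid, 59.2 to 801 and 427 to 1127 CPM for epithelial, and 797 to 1838 and 254 to 724 CPM for plasma cell markers. They were 303 to 585 and 173 to 404 CPM for B cell, 3555 to 4050.3 and 3277 to 3738 CPM for T cell, 1.48 to 27.3 and 2.73 to 128 CPM for erythroid, and 17.2 to 36.8 and 18.2 to 34.3 CPM for stromal and endothelial markers. The myeloid and the plasma cell sums did not overlap between diets. Their part in the mitochondrial and nuclear subunit values was not tested. The transcripts of Cd44 fell on the elemental diet, with a log2 fold change of -0.60 ± 0.12 (SE, edgeR adjusted p = 0.00339).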

How the data were processed

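RNA was sequenced in 26 libraries of 4 groups. For each library the authors deposited read counts per gene, split into exon, intron and total gene reads, per the file headers. The submitters' processing notes name the build GRCm38. Aligner, counter and strand setting were not given in the sources used here. The tests took total exon counts as deposited. A fit covered only the groups compared, in R 4.3.3 with edgeR 4.0.16. Genes were filtered with filterByExpr, scaled by TMM factors and tested two-sided with the robust quasi-likelihood test. A gene was called where its adjusted p (Benjamini-Hochberg, over all genes) was under 0.05. SE is the size of the log2 fold change over the square root of F. Levels are CPM on TMM-scaled library sizes. DESeq2 1.42.0 and limma 3.58.1 voom with quality weights were alternatives, besides other scalings, filters, read classes and left-out libraries. The edgeR fit was also run on simulated counts in which genes varied independently, at spreads that were set and not taken from these libraries. Figures used Python 3.11.15 and matplotlib 3.10.9.

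All 13 mitochondrial genes are named, and in each nuclear list at most 2 called genes in each direction. The genes and the lists were chosen with earlier results of these data known. The precision of a value is limited by the 6 or 7 libraries of a group more than by its read depth. The 13 mitochondrial genes hold 182 or more reads in every library. Sequences came from GENCODE transcripts on GRCm38.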

Additional observations from a re-analysis of the deposited data

Results flagged for a closer look

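In 6 of 56 groups of values tested, the highest or lowest library lay far from the others by Dixon's ratio. Chance gives about 1 in 20 for independent groups. These groups share libraries, and the mitochondrial share is a sum over the same genes, so the count cannot be set against that rate. In CD44- libraries, mt-Co2 was lowest in replicate 2 at 1649.7 CPM and mt-Nd5 highest in replicate 4 at 793 CPM. In CD44+ libraries, mt-Nd5 was highest in replicate 1 at 365 CPM. Conventional replicate 6 was the highest library for 3 values, namely the mitochondrial share of exon reads at 8.56%, mt-Nd1 at 4776 CPM and mt-Co3 at 41834 CPM.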

How the results depend on the processing

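The 3 calls of the CD44 comparison held under 25 of 25 alternatives, and the call of mt-Nd4l in the diet comparison under 11 of 23. Mitochondrial genes called in the CD44 comparison were 6 with total gene reads and 7 with all 4 groups in one fit, and 3 to 7 with a library left out (7 without CD44- replicate 2). In the diet comparison they were 2 without TMM factors, 0 without a filter, 0 with all 4 groups in one fit, 0 with a minimum fold of 1.5, and 0 to 2 with a library left out. Under voom, mt-Nd3 was called in place of mt-Nd4l.

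Genes called in the CD44 comparison, 64 in all, were 401 with DESeq2, 101 with total gene reads, 1748 with all 4 groups in one fit and 30 with a minimum fold of 1.5. With a library left out they were 36 to 87, with 36 without CD44+ replicate 5 or 7, 37 without CD44+ replicate 6 and 41 without CD44- replicate 4. In the diet comparison, 2081 in all, they were 4095 with voom, 2 with all 4 groups in one fit and 347 with a minimum fold of 1.5. With a library left out they were 1299 (conventional replicate 4) to 3865 (conventional replicate 6), and 1316 without elemental replicate 4.

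An alternative chosen after seeing the data left out the libraries with the lowest and the highest mitochondrial share, CD44- replicates 2 and 4, or elemental replicate 1 and conventional replicate 6. It gave 29 genes in the CD44 and 3379 in the diet comparison, with 4 and 1 mitochondrial genes, and log2 fold changes of 0.19 for mt-Co3 and 0.0268 for mt-Cytb in the diet comparison. Other reversals in the diet comparison were mt-Co3 (0.0358) and mt-Cytb (0.0204) under voom, and mt-Co2 (-0.0247) and mt-Nd4 (-0.0897) without TMM factors. With a library left out the log2 fold changes were -0.0394 to 0.108 for mt-Nd4 and -0.131 to 0.123 for mt-Co3. They were -0.178 to 0.0193 for mt-Cytb and -0.150 to 0.00492 for mt-Nd6. On unique exon reads the mitochondrial share was 8.96% on the conventional and 8.17% on the elemental diet. The cause of these shifts was not tested.

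Samples with the same replicate number correlated at -0.04 to 0.12 in the CD44 and -0.14 to 0.27 in the diet comparison. Of these numbers, 1 of 7 and 2 of 6 were above 0.1. Low correlations between so few libraries cannot tell whether a shared number marks a shared animal or sort, and the labels do not say. With the replicate block 37 and 2033 genes were called, with 3 and 1 mitochondrial genes, and mt-Co3 in the CD44 comparison was at 0.0109.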
